A study of Mus musculus with 16 samples.

Results

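The genes described here are 10 members of the growth hormone and insulin-like growth factor (IGF) axis, picked by name from the mRNA table of RNA sequencing of mouse skeletal muscle: Ghr, Igf1, Igf2, Igf1r, Igf2r, Igfbp3, Igfbp4, Igfbp5, Igfbp6 and Igfbp7. All 10 were found among the 23235 gene names of the table and all 10 passed the filter on low counts, as did 15364 genes in total. The list was picked with group results of these mice in view, so every group difference of a member given below is a description of these 16 mice and not an independent test of the axis. Adjusted p values say where a member stands in the fit of all genes.

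All samples were skeletal muscle of male C57BL/6J mice (C57BL/6 in the strain label), bought at 6 weeks of age, with 4 mice in each of 4 groups. The control mice ate a normal diet. The HFD mice ate a high-fat diet (60% fat, 20% protein, 20% carbohydrate), whose first 8 weeks were used to establish insulin resistance. The HFD + RSV mice ate the same diet and were treated with resveratrol, a plant polyphenol, for 6 weeks, and the HFD + MET mice were treated likewise with metformin, a glucose-lowering drug. The metformin dose and the muscle taken are not given in the sources used here, and the study's methods, which describe the control, HFD and HFD + RSV groups, state that some mice of each were given insulin shortly before collection without saying whether these were the sequenced ones. Each mouse gave 1 library.

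Growth hormone from the pituitary acts through its receptor, which signals by JAK2 and STAT5 and induces Igf1 in liver and in muscle. IGF1 and IGF2 act through the IGF1 receptor, whereas the IGF2 receptor carries IGF2 to lysosomes. The IGF binding proteins hold IGFs in the fluid around cells, where they may limit or prolong IGF action, and muscle fibres and their stroma make several of them.

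The mRNA and lncRNA tables together held 20281801 to 34021101 counts per mouse, and the members held 0.081% to 0.137% of the mRNA counts. The marker transcripts of muscle fibres dominated in every mouse, with a sum of 7 genes between 18689 and 28535 FPKM (the deposited level, scaled to transcript length and depth), whereas 4 retina markers summed to at most 0.648 FPKM, although the extraction text of the labels names retinas. White adipocyte markers (5 genes) summed to 579 to 2916 FPKM in control mice, 126 to 549 in HFD, 178 to 547 in HFD + RSV and 147 to 2509 in HFD + MET mice. Control mouse 3 and HFD + MET mouse 3 stood apart at 2916 and 2509 FPKM, and they also held the highest brown adipocyte sums, 522 and 127.5 FPKM. Results that rest on these 2 mice are given with and without them. All 4 HFD mice share the number 7 in their names, while the other groups hold several numbers, and what the number marks is not given in the sources used here, so it and the untreated high-fat diet cannot be told apart. In RNA of whole tissue, fewer cells of a type and less RNA per cell cannot be told apart either.

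Among the members, Ghr had the highest mean FPKM over the 16 mice, 71.8 ± 24.6 (SD), followed by Igfbp5 at 47.9 ± 18.4. Igfbp6 (25.4 ± 6.49), Igfbp7 (23.5 ± 5.79) and Igf2r (20.9 ± 1.64) formed a middle group, in which Igfbp7 exceeded Igf2r in 9 of 16 mice. Igfbp4 stood at 10.8 ± 5.67 FPKM. The levels of Igfbp4 and Igfbp5 leave out lncRNA rows inside their exons, which are described below. Igf1 (5.44 ± 1.95), Igfbp3 (5.23 ± 1.33) and Igf1r (5.14 ± 0.780) did not differ beyond their spread, since Igf1 exceeded Igfbp3 in 7 and Igfbp3 exceeded Igf1r in 8 of 16 mice. Igf2 was the lowest at 3.33 ± 0.684 FPKM and was below Igf1r in all 16 mice. Values for the comparison of mice are CPM, counts scaled to the library size with the trimmed mean of M values (TMM).

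**Figure D1:**
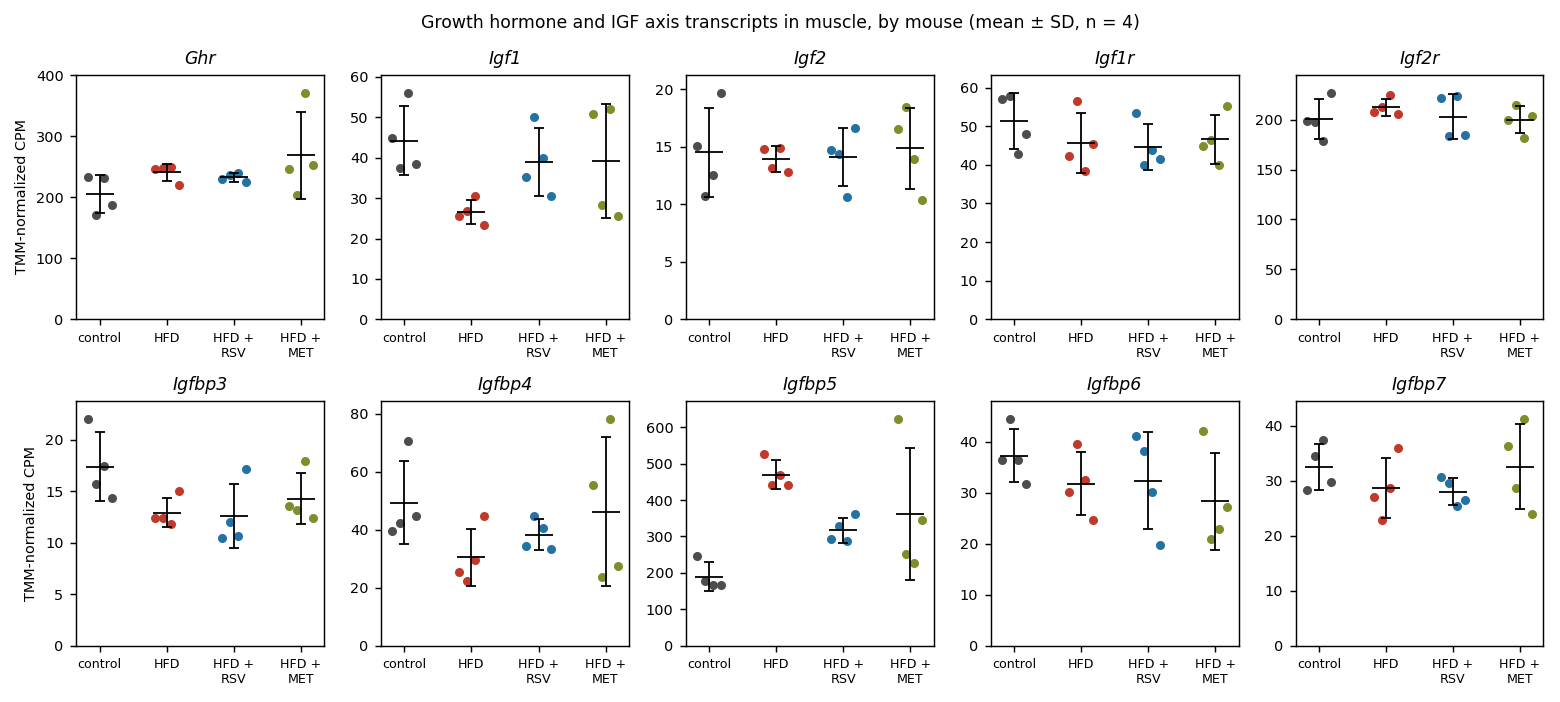
TMM-normalized CPM of the 10 members (y axis, linear, from 0) in the 4 groups (x axis). Points are single mice and bars are the mean ± SD of 4 mice. The HFD points lie above all control points for Igfbp5 and below all control points for Igf1.

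The first comparison asked how the axis stood in muscle after the high-fat diet. Igfbp5 was higher and Igf1 was lower in all 4 HFD mice than in any control mouse, and these were the 2 of 10 members whose groups did not overlap, where 18.3% of all genes tested did not overlap. Igfbp5 was the only member whose difference passed the adjusted threshold of 0.05, 1 of 10 members, beside 2.43% of all genes. This background rests on single mice, since the 374 genes called became 16 without control mouse 2 and 1588 without HFD + MET mouse 3. At an unadjusted p under 0.05 there were 3 members (Igf1, Igfbp3 and Igfbp5), beside 24.2% of all genes. The median log2 fold change of the 10 members was -0.18, and that of all genes was -0.018. The share of members at each threshold, other than the adjusted one, was thus near that of all genes.

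Igfbp5, which binds IGFs in the matrix around cells and is made by differentiating muscle cells, lies at chr1:72857932-72874884 on the minus strand (GRCm38). Its normalized counts were 248, 176, 167 and 167 CPM in the 4 control mice and 527, 442, 469 and 442 CPM in the 4 HFD mice. Every HFD mouse stood above every control mouse. The mean was 189.7 ± 38.9 CPM in control and 470.2 ± 40.1 CPM in HFD mice (SD, n = 4), a log2 fold change of 1.31 (SE 0.255) or 2.48-fold, with an adjusted p of 0.0267 by edgeR's quasi-likelihood test. Without the 2 adipocyte-rich mice the log2 fold change was 1.25 with an adjusted p of 0.0212. The call did not hold in 6 of the 16 fits that left out 1 mouse, those without control mouse 2, 3 or 4 or HFD mouse 1, 2 or 3, in which the adjusted p was 0.0836, 0.0905, 0.0611, 0.0815, 0.0678 and 0.0699 and the log2 fold change stayed between 1.25 and 1.34.

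Igf1, the growth factor that growth hormone induces, lies at chr10:87858265-87937042 on the plus strand. It was measured at 44.9, 37.5, 56.1 and 38.5 CPM in control mice and at 25.6, 26.9, 30.45 and 23.3 CPM in HFD mice. Every HFD mouse was below every control mouse, and control mouse 3, which is rich in adipocyte transcripts, was the highest. Some marker sums were likewise lower in every HFD mouse than in every control mouse. These were the sums of white adipocyte (579 to 2916 against 126 to 549 FPKM) and brown adipocyte markers (19.15 to 522 against 0.791 to 2.40 FPKM). The others were the sums of endothelial markers (71.7 to 100.5 against 63.6 to 71.05 FPKM) and of the retina markers near 0. Single genes within these sums overlapped, among them Adipoq, Plin1, Lep, Kdr, Tie1 and Vwf. Lep went up to 14.9 FPKM in HFD and to 7.63 FPKM in control mice. The part of these cell types in the result was not tested. The log2 fold change of Igf1 was -0.74 (SE 0.228), a 1.67-fold lower mean, with an unadjusted p of 0.00579 and an adjusted p of 0.0822 in edgeR, so the difference was not called. It was called by DESeq2 (adjusted p = 0.0285), which called 10.1% of all genes, by edgeR on the 8 mice of both groups alone (adjusted p = 0.0246) and on the 12 mice without the HFD + MET group (adjusted p = 0.0192). Leaving out HFD + MET mouse 3 alone also gave a call for Igf1 (adjusted p = 0.0427). Without the 2 adipocyte-rich mice the log2 fold change was -0.61 with an adjusted p of 0.135.

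The deposited FPKM values gave a compact view of both genes together. They come from the mRNA table alone and leave out the lncRNA rows inside Igfbp5 exons described below. Those rows held far fewer counts in control mouse 4 and HFD + MET mouse 1 than in the other mice. The ratio of Igfbp5 to Igf1 FPKM was 5.83, 4.90, 3.01 and 4.84 in the control mice and 20.7, 16.3, 15.45 and 16.9 in the HFD mice. In the HFD + RSV mice the ratio was 8.46, 6.86, 7.36 and 11.8, and in the HFD + MET mice it was 11.6, 9.16, 4.22 and 13.5. The 4 HFD mice held the highest ratios of the 16. Both genes were taken because their HFD and control groups did not overlap, in opposite directions. The separation of these groups in the ratio follows from that and is no further result. The lowest ratios of their groups were those of control mouse 3 and HFD + MET mouse 3.

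The other binding proteins moved less. Igfbp3, the main carrier of IGFs in blood, was measured at 22.0, 15.7, 17.4 and 14.35 CPM in control mice and at 12.4, 12.4, 11.85 and 15.02 CPM in HFD mice. Its groups overlapped through HFD mouse 4 and control mouse 4, and its log2 fold change was -0.43 (SE 0.175, adjusted p = 0.156). Igfbp4, an inhibitory binding protein that is cleaved by the protease PAPP-A, was measured at 39.65, 42.1, 70.6 and 44.7 CPM in control mice and at 25.3, 22.4, 29.5 and 44.6 CPM in HFD mice. Here control mouse 3 was the highest, and the log2 fold change of -0.70 (SE 0.336, adjusted p = 0.219) was -0.47 without the 2 adipocyte-rich mice. Igfbp6, which prefers IGF2, had a log2 fold change of -0.23 (SE 0.239), and Igfbp7, a related protein that binds IGFs weakly, had one of -0.18 (SE 0.165), and neither was called.

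**Figure D2:**
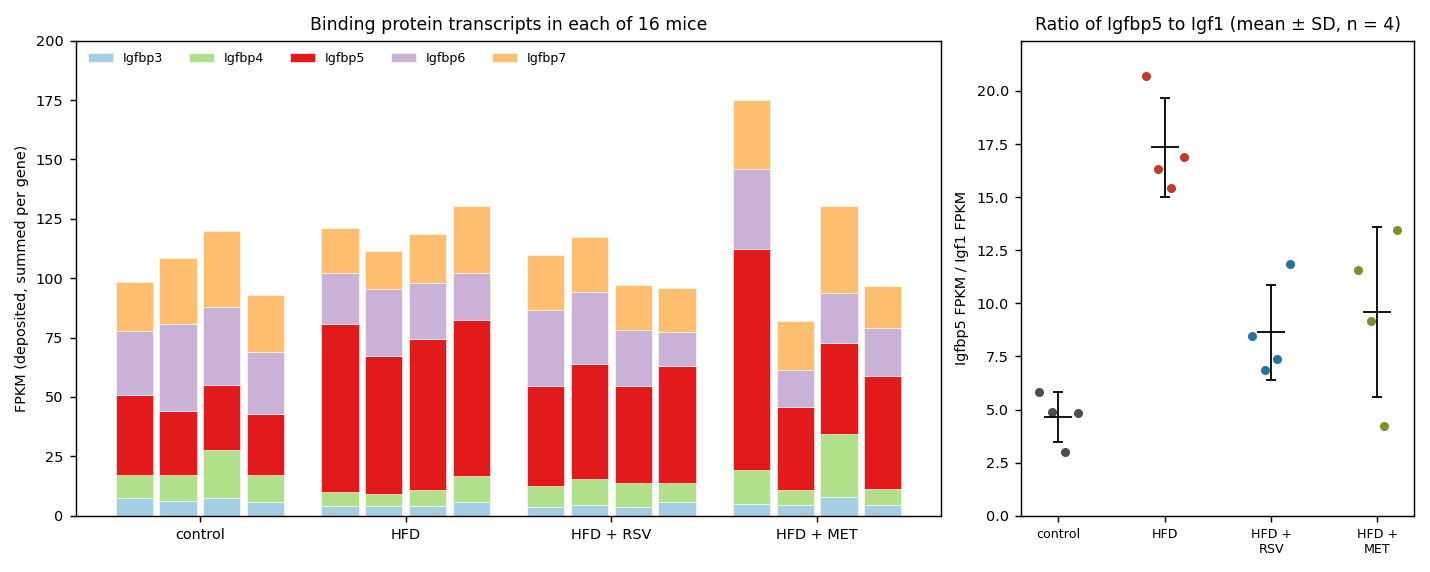
Left, FPKM of the 5 binding protein genes, stacked (y axis, linear, from 0) for each of the 16 mice in 4 groups (x axis). Right, the ratio of Igfbp5 FPKM to Igf1 FPKM per mouse, with the mean ± SD of 4 mice. Igfbp5 makes 23.1% to 34.5% of the stack in control mice and 50.3% to 58.4% in HFD mice.

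Of the FPKM of the 5 binding protein genes together, Igfbp5 held 27.5% ± 5.00 in control mice and 53.7% ± 3.43 in HFD mice (SD, n = 4). The share was 43.3% ± 5.44 in HFD + RSV and 43.6% ± 10.4 in HFD + MET mice. These shares likewise leave out the lncRNA rows inside exons of Igfbp5 and Igfbp4. The sum of the 5 genes was 105 ± 12.0 FPKM in control and 120.4 ± 7.83 FPKM in HFD mice, and the groups overlapped. Igfbp6 gave the second share of the HFD sum in mouse 1, 2 and 3, at 17.9% to 25.15%.

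No receptor was called. Ghr was measured at 233, 171, 231 and 188 CPM in control and at 246, 248, 249 and 220.1 CPM in HFD mice, a log2 fold change of 0.23 (SE 0.153, adjusted p = 0.375) with overlapping groups. Igf1r, the signalling receptor, had a log2 fold change of -0.17 (SE 0.141) in the counts, with overlapping groups. In the deposited FPKM, however, Igf1r was at 6.03, 6.62, 5.46 and 5.72 in control and at 4.26, 5.01, 3.94 and 4.56 in HFD mice without overlap. The share of all genes without overlap in FPKM was not computed. For Igf1r, limma on log2(FPKM + 0.1) gave -0.42 (SE 0.124, adjusted p = 0.0925), where the median of all genes was -0.152. Igf2r, the scavenger receptor, had a log2 fold change of 0.08 (SE 0.0958) in the counts, with an approximate 95% interval of -0.10 to 0.27. Igf2 had a log2 fold change of -0.06 (SE 0.198), between 14.5 ± 3.89 and 13.9 ± 1.12 CPM. None of these 4 genes was called in the 6 comparisons by edgeR.

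**Figure D3:**
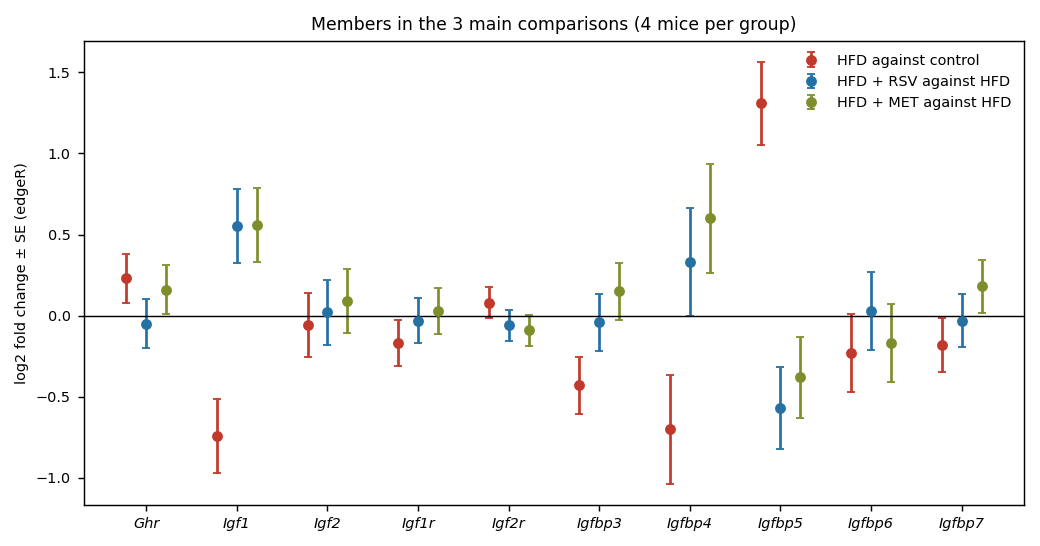
Log2 fold change of each member (y axis) with its SE from edgeR for HFD against control, HFD + RSV against HFD and HFD + MET against HFD, 4 mice per group. Igfbp5 lies at 1.31 for HFD against control and Igf1 at -0.74, and the treatment points of both genes lie on the other side of 0.

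The comparisons of treated with untreated HFD mice asked whether resveratrol or metformin changed the axis. No member was called by edgeR in HFD + RSV against HFD, beside 0% of all genes, and DESeq2 called 0 members, beside 0.0521% of all genes. At an unadjusted p under 0.05 there were 2 members (Igf1 and Igfbp5), beside 4.72% of all genes, and the same 2 members had groups that did not overlap, beside 4.2% of all genes. No member was called in HFD + MET against HFD either, beside 0.013% of all genes, and DESeq2 called 0, beside 0.202% of all genes. There, 1 member (Igf1) had an unadjusted p under 0.05, beside 8.02% of all genes, and 0 members had groups that did not overlap, beside 3.72% of all genes.

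In the HFD + RSV mice Igfbp5 was measured at 292, 328.5, 286 and 361 CPM, all below the 4 HFD mice and all above the 4 control mice. For HFD + RSV against control the share of all genes without overlap was not computed. Against HFD the log2 fold change was -0.57 (SE 0.252, unadjusted p = 0.0394, adjusted p = 0.999, edgeR). Igf1 in the same mice was measured at 35.1, 50.0, 40.0 and 30.6 CPM, all above the 4 HFD mice, although the gap between 30.6 and the highest HFD mouse was small. Its log2 fold change was 0.55 (SE 0.228, unadjusted p = 0.0287, adjusted p = 0.999, edgeR). The HFD group enters both this comparison and that with control mice, so the opposite signs of the 2 comparisons share those 4 mice.

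In the HFD + MET mice Igfbp5 was measured at 623, 250.5, 227 and 345.5 CPM. Mouse 1 was above all HFD mice and the other 3 were below them, with a log2 fold change of -0.38 (SE 0.251, adjusted p = 0.684, edgeR). Igf1 was measured at 50.7, 28.2, 52.1 and 25.6 CPM, so that mice 1 and 3 were above all HFD mice and mice 2 and 4 were within their range. The log2 fold change of Igf1 was 0.56 (SE 0.228, adjusted p = 0.618, edgeR), and 0.39 without the 2 adipocyte-rich mice. Igfbp4 showed the same split, with 55.5 and 78.2 CPM in mice 1 and 3 and 23.8 and 27.5 CPM in mice 2 and 4. Its log2 fold change of 0.60 (SE 0.336) was 0.22 without the 2 adipocyte-rich mice. Ghr reached 371 CPM in mouse 3 against 204 to 252 CPM in the other 3, and its log2 fold change of 0.16 became -0.04. White adipocyte markers summed to 775, 147, 2509 and 229.5 FPKM in these 4 mice, in the same order as Igfbp4. The part of adipocyte RNA in these values was not tested.

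Between resveratrol and metformin, edgeR called 0 of 10 members, beside 0% of all genes, and DESeq2 called 0, beside 0.0651% of all genes. At an unadjusted p under 0.05 there were also 0 members, beside 4.68% of all genes. An approximate 95% interval was taken from the SE by the normal distribution, which is somewhat narrower than edgeR's test implies. For HFD + RSV against HFD + MET it was -0.68 to 0.30 for Igfbp5 and -0.45 to 0.44 for Igf1 on the log2 scale. Differences as large as these bounds thus remain possible. Against control mice, Igfbp5 had a log2 fold change of 0.74 (SE 0.252, adjusted p = 0.205, edgeR) in HFD + RSV and of 0.93 (SE 0.253, adjusted p = 0.244, edgeR) in HFD + MET mice. In HFD + RSV against control 0 members were called by edgeR, beside 0.00651% of all genes, and 0 by DESeq2, beside 2.97% of all genes. Igfbp5 was called there by edgeR on the 12 mice without HFD + MET (adjusted p = 0.0339), a fit that called 231 of 15097 genes, and 2 (Igfbp3 and Igfbp5) had an unadjusted p under 0.05, beside 15.8% of all genes. In HFD + MET against control 0 members were called by edgeR, beside 0% of all genes, DESeq2 called 1 (Igfbp5, adjusted p = 0.0347), beside 1.01% of all genes, edgeR without HFD + MET mouse 3 called Igfbp5 (log2 fold change 1.10, adjusted p = 0.0468), and 2 (Ghr and Igfbp5) had an unadjusted p under 0.05, beside 9.5% of all genes.

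Part of the reads over Igfbp5 and Igfbp4 were counted in the lncRNA table. The transcript NONMMUT001471.2 (chr1:72858067-72859857) lies wholly inside the last exon of Igfbp5, and the table gives no strand for it. It held 1697 to 4907 counts in 14 mice but 9 in control mouse 4 and 9 in HFD + MET mouse 1. Lacking a strand, reads of this transcript and of Igfbp5 mRNA cannot be told apart. With the lncRNA counts inside its exons added, Igfbp5 stood at 338, 240.3, 226 and 163.5 CPM in control mice and at 724, 599.5, 636 and 572 CPM in HFD mice. The log2 fold change was then 1.38 (adjusted p = 0.0123, edgeR), and HFD + MET mouse 1, at 611 CPM, fell within the range of the HFD mice. For Igfbp4, NONMMUT011946.2 (chr11:99051575-99052641) inside its last exon held 302 to 1058 counts per mouse, over all mice 73.3% of the Igfbp4 mRNA count, and adding it changed the log2 fold change of HFD against control from -0.70 to -0.45.

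At Igf1, the lncRNA table lists NONMMUT006717.2 (chr10:87859266-87862789), which starts within the first exon of the leading Igf1 transcript and runs on into the intron, over the first exons of other Igf1 transcripts. It held 14, 11, 22 and 8 counts in control mice and 36, 52, 75 and 84 in HFD mice. These groups did not overlap, and the order of the groups was opposite to that of Igf1 mRNA. The counts were 10, 10, 27 and 12 in HFD + RSV and 31, 9, 112 and 6 in HFD + MET mice. Within the HFD + MET group the row and Igf1 mRNA (50.7, 28.2, 52.1 and 25.6 CPM) ranked the mice alike. In an edgeR fit of 17595 lncRNA rows its log2 fold change was 2.29 (SE 0.752, adjusted p = 0.131) for HFD against control and -2.12 (SE 0.744, adjusted p = 0.662) for HFD + RSV against HFD. This row was singled out after its values were seen, and the share of all lncRNA rows without overlap was not computed. The study, by its own criterion, listed the same row among lncRNAs raised in HFD and lowered in HFD + RSV mice. No lncRNA row that overlaps a member was called in these comparisons or in HFD + MET against HFD, in which 1.62%, 0.0114% and 0% of all lncRNA rows were called.

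The share of a gene count held by each transcript divides by the summed count that the choice of members compared. Of 9 members with at least 2 counted transcripts, each over 3 comparisons, 0 of 27 tests of the leading transcript's share of the gene count passed an adjusted p of 0.05 (lowest adjusted p = 0.257), and 3 had the smallest p that an exact two-sided permutation test of 4 against 4 mice can give, 0.0286. At this smallest p, 16 of the 27 tests would have had to reach it for any to pass, so the adjusted result says little. These 3 were Igf1 in HFD against control and in HFD + RSV against HFD, and Igf1r in HFD against control. Igf1-202 held 96.6% ± 1.01 of the Igf1 count in control, 93.0% ± 2.44 in HFD and 95.7% ± 0.354 in HFD + RSV mice (SD, n = 4). Igf1r-201 held 89.85% ± 0.408 in control and 92.1% ± 1.88 in HFD mice.

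Igf1 transcripts differ by a 52-base coding exon (chr10:87915298-87915349, plus strand, GRCm38), which alters the reading frame of the E peptide that follows mature IGF1. The sequences below, from the GENCODE M21 transcripts, show this exon in capitals with 18 bases of the exons before and after it, and the same junction in the leading transcript, in which it is skipped.
Igf1-203: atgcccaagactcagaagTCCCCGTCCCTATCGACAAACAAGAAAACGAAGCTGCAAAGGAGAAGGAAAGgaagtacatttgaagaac
Igf1-202: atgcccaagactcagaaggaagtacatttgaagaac
Transcripts with the exon spliced in held 0% to 2.55% of the Igf1 count over the 16 mice, and they were at 0 counts in control mouse 4 and HFD mouse 3. Transcripts that end in this exon (Igf1-201) held 1.00%, 2.06%, 1.67% and 1.75% in control mice and 2.88%, 2.94%, 3.19% and 6.71% in HFD mice. Every HFD mouse was higher in this share than every control mouse. The share rests on 8 to 24 counts of Igf1-201 in control and 17 to 34 in HFD mice. It divides by the whole Igf1 count, which was lower in every HFD mouse than in every control mouse. In HFD + RSV mice the share was 1.40% to 1.90%. In HFD + MET mice it was 2.71%, 1.73%, 3.16% and 1.26%, and there it was higher where the Igf1 count was higher. The share was given without a test.

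Ghr (chr15:3317760-3583492, minus strand) is transcribed into the full receptor and into a short form, the soluble growth hormone binding protein, whose coding sequence leaves the shared part before the membrane-spanning segment. Both coding sequences share 811 bases. Shown are the last 18 shared bases in lower case and, in capitals, the 83 bases that follow in each, which end with the stop codon in the short form (chr15:3327604-3327686) and run on in the full form (chr15:3325906-3325988).
Ghr-202: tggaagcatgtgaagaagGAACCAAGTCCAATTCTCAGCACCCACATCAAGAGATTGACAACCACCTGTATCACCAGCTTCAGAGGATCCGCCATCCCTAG
Ghr-201: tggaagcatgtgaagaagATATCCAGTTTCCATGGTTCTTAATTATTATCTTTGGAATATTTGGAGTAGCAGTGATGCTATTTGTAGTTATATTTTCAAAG
The short form (Ghr-202 and Ghr-203) made up 7.37% ± 2.32 of the counts of the complete coding forms in control, 6.45% ± 2.24 in HFD, 6.49% ± 1.29 in HFD + RSV and 5.16% ± 1.99 in HFD + MET mice (SD, n = 4), and the groups overlapped. The full form from another first exon, Ghr-208, made up 36.8% of the full-length counts in control mouse 3 and 15.2% in HFD + MET mouse 3, the 2 adipocyte-rich mice. It made up 9.62% in HFD mouse 1, 5.31% in HFD mouse 4, 4.78% in HFD + MET mouse 4 and at most 1.59% in the other 11 mice.

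**Figure D4:**
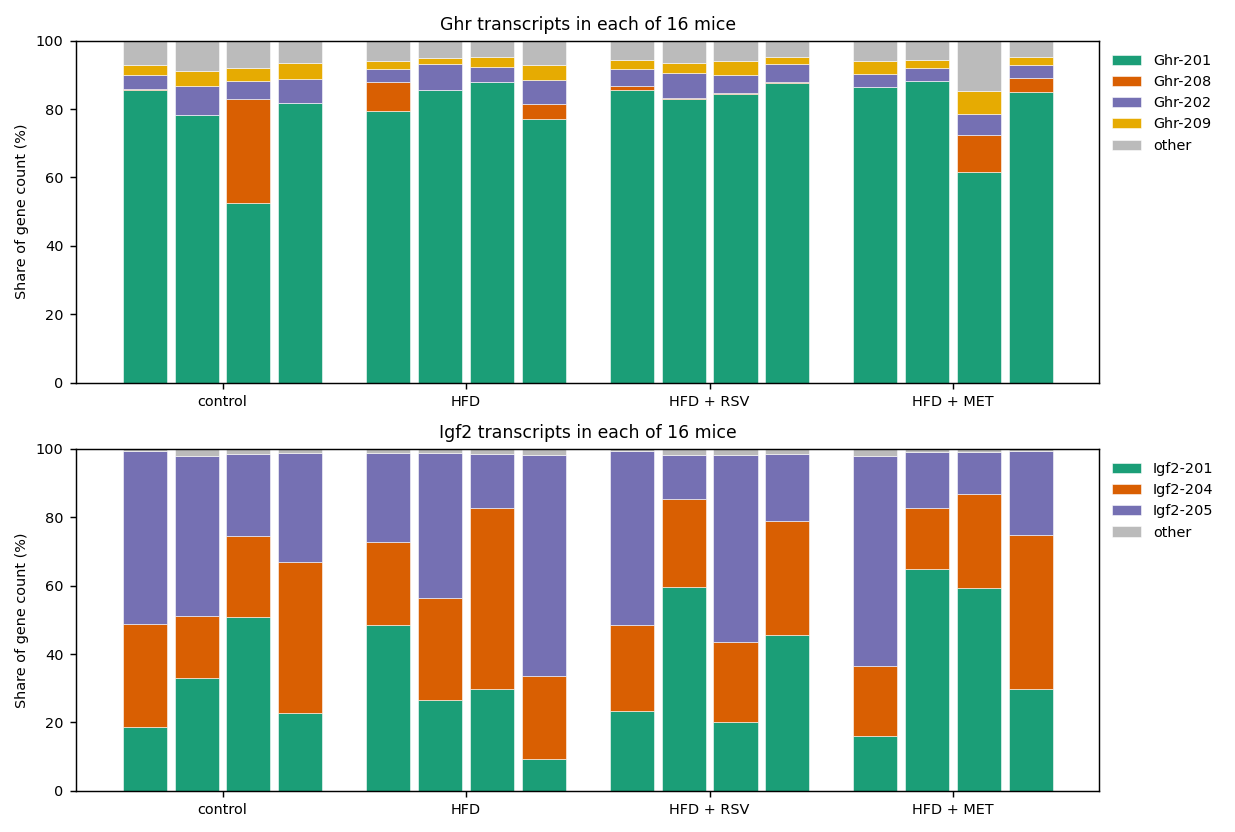
Share of the gene count (y axis, %) held by each transcript of Ghr (top) and Igf2 (bottom) in the 16 mice, stacked, by group (x axis). Ghr-208 stands out in control mouse 3, and the 3 main Igf2 transcripts exchange shares between mice of the same group.

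The 3 main Igf2 transcripts start at different first exons. Igf2-201 held 18.7%, 32.9%, 50.8% and 22.7% of the Igf2 count in control mice and 48.4%, 26.5%, 29.9% and 9.35% in HFD mice. Igf2-205 held 50.4%, 46.7%, 24.0% and 31.7% in control and 25.95%, 42.3%, 15.7% and 64.75% in HFD mice. These shares spread as widely within a group as between groups, while the Igf2 sum stayed between 10.4 and 19.7 CPM in all mice. Igfbp7-201 likewise held between 47.0% and 91.4% of the Igfbp7 count.

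The genes that act beside the members were counted from lists written down with the members. Of 38 listed genes, 31 were in the table and 27 were tested. In HFD against control 3 of 27 rose and 0 fell by edgeR, beside 2.43% of all genes called, with a median log2 fold change of 0.04 against -0.018 for all genes. The 3 were Sh2b1, an adaptor of JAK2 (log2 fold change 0.55, SE 0.1, adjusted p = 0.0202), Socs1, a feedback inhibitor of JAK kinases (2.52, SE 0.519, adjusted p = 0.0336), and Irs1, an adaptor of the insulin and IGF1 receptors (0.80, SE 0.170, adjusted p = 0.0347). Without the 2 adipocyte-rich mice 4 were called, Cish in addition (adjusted p = 0.0111). None of Sh2b1, Socs1 and Irs1 was called without control mouse 2 (adjusted p of 0.0754, 0.0823 and 0.0823), without control mouse 3 (0.0582, 0.107 and 0.0875) or without HFD mouse 4 (0.0505, 0.0631 and 0.0651). Without control mouse 4 or HFD mouse 3, Sh2b1 alone of the 3 was called, and without HFD mouse 1 Socs1 alone, while without HFD mouse 2 Irs1 lost its call (0.0965). None of the 27 was called by edgeR in HFD + RSV against HFD or in HFD + MET against HFD, in which 4 and 7 had an unadjusted p under 0.05 (4.72% and 8.02% of all genes). There DESeq2 called 2 (Socs1 and Cish) and 1 (Socs1), beside 0.0521% and 0.202% of all genes. Socs1 was low throughout, with 7 to 22 counts in control mice and 30 to 143 in HFD mice.

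The list of growth hormone receptor signalling and feedback held 11 genes, all tested, of which 2 rose (Sh2b1 and Socs1) and 0 fell in HFD against control. Cish, which STAT5 induces and which blocks the receptor in turn, was measured at 10.6, 16.4, 20.7 and 6.97 CPM in control mice and at 52.4, 54.6, 67.4 and 98.0 CPM in HFD mice. The groups were far apart, with a log2 fold change of 2.31 (SE 0.601, adjusted p = 0.0573, edgeR), which DESeq2 called (adjusted p = 0.0016). Cish was also called by edgeR without HFD + MET mouse 3 (adjusted p = 0.00601) or mouse 4 (adjusted p = 0.0368). In the HFD + RSV mice Cish was at 9.03, 16.4, 14.4 and 7.02 CPM, within the range of the control mice, with a log2 fold change of -2.54 against HFD (SE 0.607, adjusted p = 0.999 in edgeR and 0.0126 in DESeq2). In the HFD + MET mice it was at 17.1, 8.99, 61.1 and 6.575 CPM, so that mouse 3 alone was within the HFD range. Without the 2 adipocyte-rich mice the log2 fold change of HFD + MET against HFD was -2.66 in place of -1.54.

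Socs3, another inhibitor of cytokine receptors, was measured at 3.88, 3.51, 3.32 and 3.95 CPM in control and at 7.05, 4.66, 9.11 and 18.8 CPM in HFD mice (log2 fold change 1.43, SE 0.385, adjusted p = 0.0604, edgeR). Without HFD + MET mouse 2 or mouse 3 Socs3 was called (adjusted p of 0.0469 and 0.0354), as it was by DESeq2 (0.00748) and by edgeR on the 12 mice without HFD + MET (0.0322). Socs2, the growth-limiting member of the family, had overlapping groups, with 11.8 ± 3.85 CPM in control and 16.6 ± 6.02 CPM in HFD mice (SD, n = 4). Jak2, Stat5a and Stat5b, which carry the signal, were not called in any of the 6 comparisons. HFD mouse 4 had the highest Socs1, Socs2, Socs3 and Cish of the 16 mice.

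**Figure D5:**
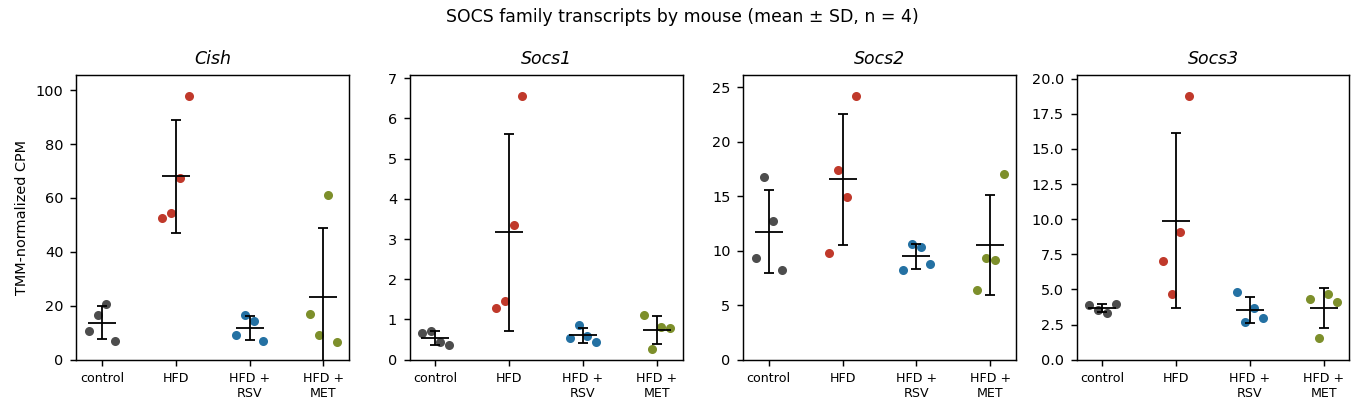
TMM-normalized CPM of Cish, Socs1, Socs2 and Socs3 (y axis, linear, from 0) in the 4 groups (x axis). Points are single mice and bars are the mean ± SD of 4 mice, cut at 0. For Cish the HFD mice lie at 52.4 to 98.0 CPM, above the control mice at 6.97 to 20.7 CPM.

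The list of the insulin receptor and adaptors also holds genes of the Igf2bp family, which encode RNA-binding proteins and not adaptors. Of its 9 genes 7 were tested, of which Irs1 alone was called by edgeR in HFD against control. Irs1 was measured at 64.0, 71.2, 70.3 and 52.8 CPM in control and at 89.05, 132, 108 and 120.4 CPM in HFD mice, without overlap. Irs2, its partner, had 154 ± 35.9 CPM in control, 128 ± 32.2 in HFD, 101 ± 30.2 in HFD + RSV and 82.7 ± 14.6 in HFD + MET mice (SD, n = 4). It was not called by edgeR. In HFD + MET against control its log2 fold change was -0.90 (SE 0.227, adjusted p = 0.218, edgeR), and DESeq2 called it (adjusted p = 0.0241), beside 1.01% of all genes. Its groups did not overlap there, and the share of all genes without overlap was not computed for that comparison. Of the other binding proteins, Igfbp1 held 0 to 8 counts and Igfbp2 0 to 65 counts, both highest in control mouse 2, in which the hepatocyte markers were also the highest (81.6 FPKM over 4 genes). Igfals, which forms the serum complex with IGFBP3, was at 5.396 ± 1.38 CPM in control and 4.24 ± 0.608 CPM in HFD mice and was not called. None of the 6 proteases and inhibitors of binding proteins was called by edgeR. Stc1, whose protein inhibits PAPP-A, was at 1.40, 2.19, 2.31 and 2.03 CPM in control and at 0.519, 0.499, 0.575 and 0.827 CPM in HFD mice without overlap, on 12 to 68 counts, with a log2 fold change of -1.71 (SE 0.497, adjusted p = 0.0716, edgeR). DESeq2 called Stc1 (adjusted p = 0.0179), as did edgeR on the 8 mice of both groups (0.0144), on the 12 mice without HFD + MET (0.0144) and without HFD + MET mouse 3 (0.0234) or mouse 4 (0.0354). Gh itself held 0 counts in 15 mice and 3 in HFD + MET mouse 4.

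Over the 16 mice, the tested genes whose log2 CPM followed a member most closely are given as a description, with Pearson's r and no test. For Igfbp5 they were Srcin1 (0.903), Plxnd1 (0.903) and Man2a2 (0.895), and for Igf1 they included Pycrl (0.905) and Pabpc1 (0.900). Igfbp4 had the closest followers of all members, Scn7a (0.969), Slc22a3 (0.968) and Chdh (0.967). Igfbp6 went with Pamr1 (0.873), Ogn (0.870) and Dcn (0.840), of which the last pair encode matrix proteoglycans of fibroblasts. The nearest genes were Morc4 for Ghr (0.885), Slc35a4 for Igf2 (0.811), Hmgcll1 for Igf1r (0.875), Klhl30 for Igf2r (0.907), Prr14 for Igfbp3 (0.896) and Tpcn2 for Igfbp7 (0.939). Among the members, Igfbp4 went with Igfbp7 (0.83) and with Igf1 (0.81), while Igf1 and Igfbp5 had a value of -0.44. These points share libraries, groups and the 2 adipocyte-rich mice.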

How the data were processed

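Libraries of skeletal muscle RNA from 16 mice were sequenced as paired ends after ribosomal RNA removal. The submitters' processing notes name fastp, HISAT2 and the GRCm38 genome, and the study's methods name StringTie. The authors deposited 2 tables (mRNA and lncRNA) with estimated counts per transcript, without normalization, and beside each count an FPKM value that the authors calculated. Lines of 4 transcripts that were broken in 2 were joined. Estimated counts were whole numbers, were summed per gene name, filtered (filterByExpr by group, minimum count 10, minimum total 15), scaled by TMM and tested in 1 fit of 16 mice with edgeR 4.0.16 (R 4.3.3, quasi-likelihood, robust), with Benjamini-Hochberg adjustment over all genes. The biological coefficient of variation was 0.261. Alternatives used DESeq2 1.42.0, other scalings, limma 3.58.1 on log2(FPKM + 0.1), fewer mice, and lncRNA rows inside exons of GENCODE M21 (GRCm38). Each sample is a mouse, and counting intervals are not given. The members and all gene lists were chosen with earlier results of these data known. Named genes were all members, the related lists and the tested genes nearest to each member (up to 3), of which 1 is not reported here. The fit was tested on simulated data.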

Additional observations from a re-analysis of the deposited data

Results flagged for a closer look

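Of 40 groups of 4 mice (10 members in 4 groups), 3 held a mouse far from the other 3 by Dixon's criterion, and chance alone gives about 1 in 20. Igfbp5 was at 248 CPM (247.7) in control mouse 1, where the other control mice lay between 167 and 176 CPM. Igfbp4 was at 70.6 CPM in control mouse 3, where the others lay between 39.6 and 44.7 CPM, and this mouse also had the highest white adipocyte marker sum of the 16, whose part was not tested. Ghr was at 220.1 CPM in HFD mouse 4, below the other HFD mice at 246 to 249 CPM, which lay very close together.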

How the results depend on the processing

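DESeq2 called 2 members in HFD against control and 1 in HFD + MET against control, and of the related genes it called 6 in HFD against control, 2 in HFD + RSV against HFD, and 1 each in HFD + MET against HFD, HFD + RSV against control and HFD + MET against control. Of all genes DESeq2 called 10.1%, 0.0521%, 0.202%, 2.97% and 1.01% in these comparisons, in the order given for the related genes. With only both groups compared, 2 members and 5 related genes were called in HFD against control. With the 12 mice without HFD + MET, 2 members and 6 related genes were called there and 1 member in HFD + RSV against control. The 3 limma fits on FPKM called 0 related genes in HFD against control. A criterion of an unadjusted p under 0.05 and an absolute log2 fold change above 1 passed 1 member and 4 related genes in HFD against control. It passed 3 related genes in HFD + RSV against HFD and 4 in HFD + MET against HFD. The share of all genes that pass this criterion was not computed. Leaving out each mouse in turn gave 0 to 2 members and 0 to 6 related genes in HFD against control, 0 to 1 member and 0 to 1 related gene in HFD + MET against control, and 0 to 1 related gene in HFD + RSV against control. The causes were not tested. Over all genes, HFD against control gave 374 calls, 1544 by DESeq2, 998 with both groups alone, 1616 with 12 mice, 158 without a filter, 16 to 1588 without 1 mouse, and 150, 145 and 93 in the limma fits. No called value changed its sign under any alternative run. In the limma fit on log2(FPKM + 0.1) the median log2 fold change of HFD against control over all genes was -0.152, against -0.018 in the counts. The leave-out of the 2 adipocyte-rich mice and the addition of lncRNA rows were chosen after seeing the data. Adding lncRNA rows on the gene's own strand was not run, because the table gives no strand. No paired analysis was possible because the labels give mouse names and no replicate numbers shared between groups. With 4 mice per group, small differences of single members were not detectable.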

Other observations

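H19, the noncoding neighbour of Igf2 on the same imprinted domain, was read from the lncRNA table with its rows joined. It was at 215, 393.5, 332 and 1334 CPM of lncRNA counts in the control mice and at 177, 492, 528 and 338 CPM in the HFD mice. Control mouse 4 was the highest for H19 and also the highest for Igf2 mRNA (19.7 CPM). The other 3 control mice lay within the range of the HFD mice, and H19 was not called by edgeR (adjusted p = 0.617). The 5 lncRNA rows that overlap Ghr held 270 to 971 counts in HFD + MET mouse 3 and 36 to 309 counts in the other 15 mice. Of these, NONMMUT022581.2 (chr15:3325355-3327427) spans coding bases of the full form (chr15:3325906-3325988). Its reads and those of Ghr mRNA cannot be told apart there. In HFD + MET mouse 3 Ghr reached 159 FPKM, against 53.0 to 86.3 FPKM elsewhere.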
